A study of Mus musculus with 4 samples.

Results

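Transcripts of 34 genes that mark microglia and macrophages were followed in the developing mouse pontine nucleus. The genes were taken by name from the platform's gene table, and all 34 were found among its 19938 named genes, each with 1 probe set. RNA came from the dissected pontine nucleus of ICR mice, for which the labels give no genotype or treatment, before birth on embryonic day 17.5 (E17.5) and on days 1 (P1), 5 (P5) and 14 (P14) after birth. The pools held 27, 16, 13 and 12 mice in that order, and each was put on 1 Affymetrix array. No age had a replicate, so the values below are single array readings, no test could be run, and the number of arrays limits the precision of every difference. Sets of 4 levels are given throughout in the order E17.5, P1, P5 as labelled and P14 as labelled.

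Microglia are the resident macrophages of the brain. They descend from yolk sac progenitors that enter the neural tube early in the embryo, depend on the receptor CSF1R, and clear dying cells and prune synapses while circuits form. Border macrophages of the meninges and vessels are a related population with partly different genes. Complement C1q, the purinergic receptors P2RY12 and P2RY13 and the fractalkine receptor CX3CR1 are among the molecules by which microglia sense and engulf their surroundings.

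Levels are the authors' log2 signals, and a difference of 1 is 2-fold. A gene passed the level filter when its highest array reached 8.41, the median of all probe sets with 1 gene symbol. Differences between probe sets of the same gene had an SD of 0.12 for P1 against E17.5, 0.18 for labelled P5 against P1, 0.14 for labelled P14 against P5, 0.13 for labelled P14 against E17.5, 0.1 for labelled P14 against P1 and 0.18 for labelled P5 against E17.5, over 645 genes. That SD holds probe noise and not the spread between pools of mice. Barhl1, a transcription factor of pontine neurons, stood at 12.23, 11.79, 10.83 and 11.61, above the filter on each array. The arrays labelled P5 and P14 went against the order of their labels: Mog, a protein of mature myelin, stood at 7.18, 7.39, 12.91 and 8.27, and Dcx of young neurons at 12.97, 12.88, 9.79 and 12.14. The labels are kept as deposited. Only P1 against E17.5 uses neither array, and every direction between the other arrays rests on their labels.

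All 34 genes had their lowest value at E17.5, as did 22.1% of all genes. So did 22 of 22 astrocyte genes and 17 of 21 myelin and oligodendrocyte genes, so the trait was not particular to the members. On the P1 array each of the 34 was above its E17.5 level, by 0.01 to 0.97 with a median of 0.39, where 42.3% of all genes were above it and their median difference was −0.03. The smallest of these differences depended on the scaling: after quantile normalization that of Selplg came to −0.01 and that of Ptprc to 0. None reached 2-fold at P1, beside 0.502% of all genes. Astrocyte genes were above E17.5 at P1 in 22 of 22 cases, with a median of 0.8 and 5 at least 2-fold higher. Against E17.5, 16 of 34 were at least 2-fold higher on the labelled P14 array (2.73% of all genes) and 20 of 34 on the labelled P5 array (7.04%). The median differences were 0.89 and 1.07, and those of all genes 0 and −0.07. No member was 2-fold lower than at E17.5 on the P1, labelled P14 or labelled P5 arrays, beside 0.166%, 0.742% and 3.37% of all genes. These genes were listed as markers of related cells and are not independent, and whether other cells also made some of them was not tested. In whole tissue fewer cells of a type and less RNA per cell cannot be told apart.

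The level filter was passed by 22 of the genes and not by 12. Some that passed did so only through the arrays where they were highest: Itgam, Selplg and Inpp5d each reached 8.41 on 1 array, so counts over those 22 are descriptions. Among them 13 were at least 2-fold higher on the labelled P14 array than at E17.5 (4.55% of genes past the filter), and 17 on the labelled P5 array (11.3%). At least 2-fold higher were also 6 for labelled P5 against P1 (8.96%), 1 for labelled P14 against P1 (1.37%), none for P1 against E17.5 (0.826%) and none for labelled P14 against P5 (2.16%). With the filter taken from the E17.5 and P1 arrays alone, 14 genes passed. Their median at P1 was 0.49, with none at least 2-fold higher.

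**Figure D1:**
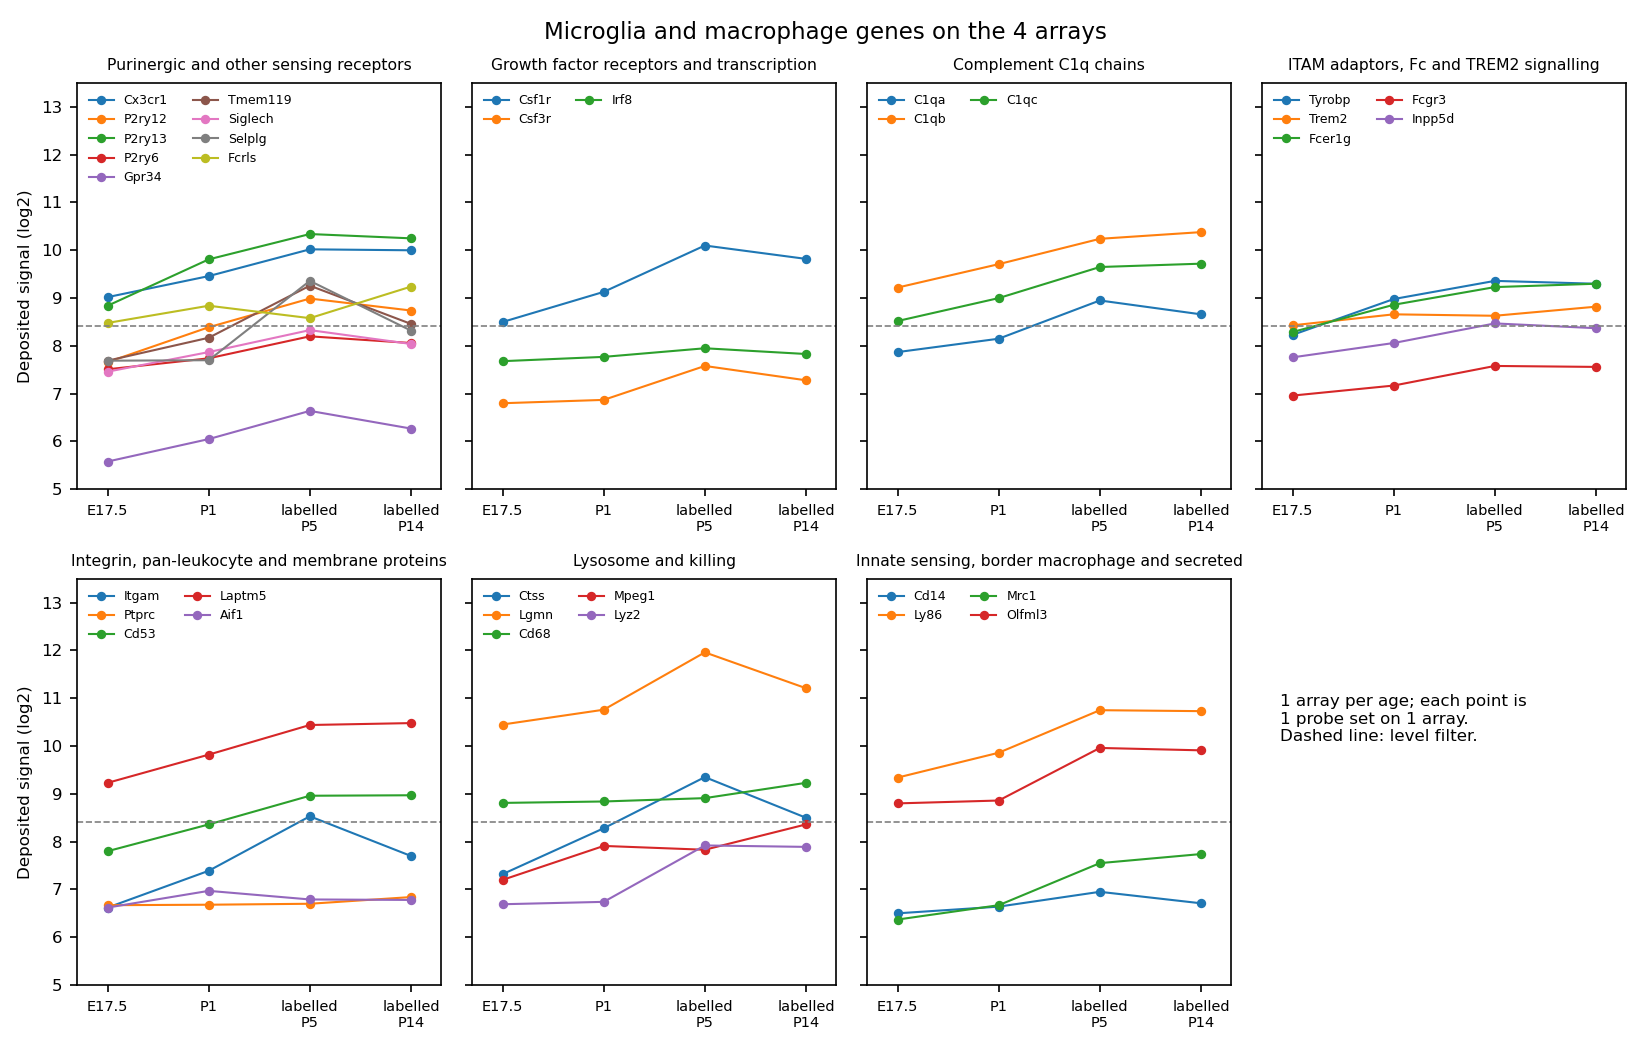
Deposited log2 signal (vertical axis) of each of the 34 genes on the 4 arrays (horizontal axis), in 7 panels by role. Each point is 1 probe set on 1 array, and the dashed line is the level filter of 8.41. Every gene is lowest at E17.5 in the deposited values, Selplg and Ptprc by only 0.01, a difference that quantile normalization removes.

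Receptors with which resting microglia sense nucleotides, chemokines and lipids followed a common course with a few exceptions. P2ry13, a receptor for ADP, stood at 8.84, 9.81, 10.34 and 10.25. Its difference at P1, 0.97, was the largest of the 34. P2ry12, the ADP receptor by which microglial processes move toward injury, stood at 7.66, 8.39, 8.99 and 8.74. Both receptor genes gained most of their difference by P1, P2ry13 differing by 1.41 and P2ry12 by 1.08 between E17.5 and the labelled P14 array. Both lie within the span of Med12l in the RefSeq table, and Med12l stood at 8.41, 8.56, 9.48 and 9.0, a difference of 0.15 at P1. Cx3cr1, the receptor for the neuronal chemokine fractalkine, stood at 9.02, 9.46, 10.02 and 10.00, with nearly equal steps before and after P1.

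Tmem119, a surface protein used to tell microglia from other macrophages, stood at 7.69, 8.17, 9.26 and 8.46. Selplg, the P-selectin ligand, stood at 7.69, 7.70, 9.36 and 8.32. The genes are neighbours on chromosome 5 with no protein-coding gene between them, and both were clearly highest on the labelled P5 array. There they exceeded the labelled P14 array by 0.80 and 1.04. Fcrls, an Fc receptor-like gene of mouse microglia, went the other way: its levels were 8.48, 8.84, 8.58 and 9.24, highest on the labelled P14 array by 0.66.

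P2ry6, a UDP receptor linked to phagocytosis, stayed under the filter at 7.51, 7.74, 8.20 and 8.06. Siglech, a sialic acid-binding lectin of microglia, also stayed under it at 7.46, 7.87, 8.33 and 8.04. Gpr34, a lysophosphatidylserine receptor, stood at 5.58, 6.05, 6.64 and 6.27, below the lower quartile of each array. All of these ran in the same order, E17.5 lowest, then P1, labelled P14 and labelled P5. The span of Gpr34 overlaps that of Cask in the RefSeq table.

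Csf1r, the receptor on which microglia depend for survival, stood at 8.50, 9.13, 10.10 and 9.82. It was 2.5-fold higher on the labelled P14 array than at E17.5 (1.32) and 3.03-fold higher on the labelled P5 array (1.60). Its ligands differed less from E17.5 on those arrays. Csf1 stood at 7.79, 8.05, 9.17 and 8.26, and Il34, the ligand made by neurons, stood under the filter at 7.61, 7.65, 8.27 and 7.87. Labelled P14 minus labelled P5 was −0.91 for Csf1, −0.4 for Il34 and −0.28 for Csf1r, a wider gap for the ligands. Csf3r, the receptor for granulocyte colony-stimulating factor, stood at 6.80, 6.87, 7.58 and 7.28. Irf8, a transcription factor of the myeloid lineage, was nearly level at 7.68, 7.77, 7.95 and 7.83. Neither Csf3r nor Irf8 reached the filter.

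Partners of the receptors were followed in a list of 18 ligands and counter-receptors, 14 of them past the filter. In this list 5 of 14 were at least 2-fold higher on the labelled P14 array than at E17.5 (4.55% of genes past the filter). At P1 3 of the 14 were at least 2-fold higher (0.826%). These were Il33, an alarmin of glia (1.84), Apoe, a lipid carrier bound by TREM2 (1.60), and Clu, another such carrier (1.32). Cx3cl1, fractalkine itself, stood at 8.75, 8.80, 11.69 and 10.09. Ligand and receptor therefore differed in course: Cx3cr1 was 0.44 higher at P1, and Cx3cl1 was 0.05 higher. On the labelled P5 array, Cx3cl1 exceeded the labelled P14 array by 1.60 and Cx3cr1 by 0.02. Cd200 (11.80, 11.91, 11.23 and 11.81) and Tgfb2 (10.23, 10.46, 9.60 and 10.49), signals of neurons and glia that restrain microglia, were lowest on the labelled P5 array. Tgfb1 (8.29, 8.38, 8.71 and 8.71) and Cd47 (12.28, 12.43, 12.56 and 12.48) of the same list were not. Over the whole list 15 of 18 genes were higher on the labelled P5 array than at P1, and 3 were lower. Of all 19938 genes, 9255 were higher and 10495 lower in that comparison.

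**Figure D2:**
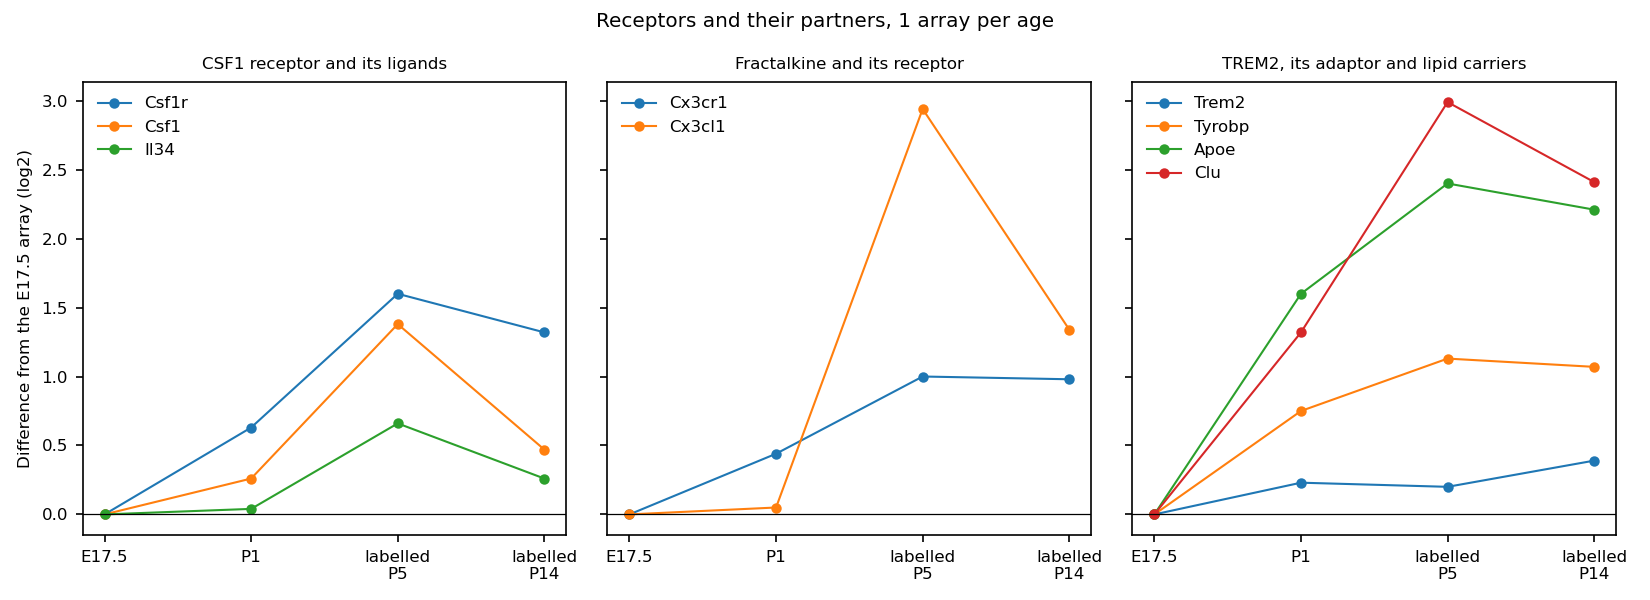
Difference from the E17.5 array in log2 units (vertical axis) on the 4 arrays (horizontal axis) for CSF1R and its ligands, the fractalkine pair, and TREM2 with its adaptor and lipid carriers. Each point is 1 gene on 1 array. Cx3cl1 stands 2.94 above E17.5 on the labelled P5 array and 1.34 on the labelled P14 array, while Cx3cr1 stands at 1.00 and 0.98.

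The 3 chains of C1q, the recognition molecule that starts the classical complement cascade and tags synapses for removal, lie side by side on chromosome 4. C1qb stood at 9.22, 9.71, 10.24 and 10.38. C1qc stood at 8.52, 9.0, 9.65 and 9.72, and C1qa at 7.87, 8.15, 8.95 and 8.66. C1qb and C1qc kept nearly the same differences at each age, 0.49 and 0.48 at P1 and 1.16 and 1.20 on the labelled P14 array. C1qa differed by less, 0.28 and 0.79, and was the only chain that was higher on the labelled P5 array, by 0.29. Of 12 other genes of the pathway, its receptors and its regulators on the array, 5 passed the filter. Of these 1, C4b, was at least 2-fold higher on the labelled P14 array than at E17.5 (4.55% of genes past the filter). C4b, the fourth component, stood at 7.36, 7.35, 8.87 and 8.66, with no difference by P1. The C3a receptor C3ar1 stayed under the filter at 7.55, 7.75, 7.74 and 8.32. The inhibitor Cd59a stood at 8.90, 9.04, 11.35 and 9.51.

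Adaptors that carry signals from TREM2 and Fc receptors differed more between the arrays than TREM2 did. Tyrobp, the adaptor DAP12, stood at 8.23, 8.98, 9.36 and 9.30. Fcer1g, the common Fc receptor chain, stood at 8.29, 8.86, 9.23 and 9.30. Trem2, the lipid receptor that signals through DAP12, stood at 8.43, 8.66, 8.63 and 8.82, a range of 0.39. Tyrobp was thus 2.1-fold higher and Trem2 1.31-fold higher on the labelled P14 array than at E17.5. Inpp5d, the phosphatase SHIP1 that damps such signals, stood at 7.76, 8.06, 8.47 and 8.37. Fcgr3, a low-affinity IgG receptor, stayed under the filter at 6.96, 7.17, 7.58 and 7.56. Of 14 partner kinases, adaptors and Fc receptors on the array, 2 passed the filter, Nckap1l (0.88 between E17.5 and labelled P14) and Rac2 (0.50), and none was 2-fold apart in that comparison.

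Membrane proteins shared by leukocytes split into genes that differed between the arrays and a pair with low, nearly flat readings. Laptm5, a lysosomal membrane protein of blood cells, stood at 9.23, 9.82, 10.44 and 10.48. Cd53, a tetraspanin, stood at 7.80, 8.36, 8.96 and 8.97. Both had the same level, within 0.04, on the arrays labelled P5 and P14. Itgam, the integrin CD11b, stood at 6.62, 7.39, 8.53 and 7.70, with its highest value on the labelled P5 array and an E17.5 value under the lower quartile of that array (6.87). Ptprc, the leukocyte antigen CD45, stood at 6.67, 6.68, 6.70 and 6.84, below the lower quartile of each array. Aif1, which encodes the protein IBA1 used to stain microglia, stood at 6.62, 6.97, 6.79 and 6.78. It was the only member highest at P1. Readings this low bear little on whether Ptprc and Aif1 transcripts differed.

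Proteins of the lysosome and of killing differed in their courses. Ctss, the protease cathepsin S, stood at 7.32, 8.28, 9.35 and 8.50, the widest range of the 34 at 2.03. Lgmn, the protease legumain, stood at 10.45, 10.76, 11.96 and 11.21. These 2 proteases were highest on the labelled P5 array, above the labelled P14 array by 0.85 and 0.75. Cd68, a lysosomal glycoprotein, was nearly level at 8.81, 8.84, 8.91 and 9.23. Mpeg1, a pore-forming protein of macrophages, stayed under the filter at 7.20, 7.91, 7.83 and 8.36, highest on the labelled P14 array. Lyz2, lysozyme, stood at 6.69, 6.74, 7.92 and 7.89, so that its levels fell in 2 pairs. The close copy Lyz1 stood at 7.09, 7.06, 7.13 and 7.33, and hybridisation shared between the copies was not tested. Of 15 further lysosomal genes on the array, 13 passed the filter and none was 2-fold higher on the labelled P14 array than at E17.5. Their median was 0.43, with Ctsl (0.83) and Ctsd (0.77) furthest apart.

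The last set of members joined innate sensing, border macrophages and secreted proteins. Ly86, the partner MD-1 of the receptor CD180, stood at 9.34, 9.86, 10.75 and 10.73. Olfml3, a secreted matrix protein made by microglia, stood at 8.80, 8.86, 9.96 and 9.91. Mrc1, the mannose receptor of border macrophages, stayed under the filter at 6.37, 6.67, 7.55 and 7.74. Cd14, the lipopolysaccharide coreceptor, was at 6.50, 6.64, 6.95 and 6.71. Ly86, Olfml3 and Mrc1 were each higher on both later arrays than at P1 by 0.87 or more, while Cd14 lay near the lower quartile throughout.

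The genes differed in how much of their difference from E17.5 was present at P1, described here by limits set after the values were seen. At P1, 6 genes were at least 0.7 higher than at E17.5, beside 1.65% of all genes: P2ry13, Ctss (0.96), Itgam (0.77), Tyrobp (0.75), P2ry12 (0.73) and Mpeg1 (0.71). With 64 added on the linear scale, 2 of these remained past 0.7, P2ry13 and Ctss. Another 7 genes were at most 0.1 higher at P1, as were 74.9% of all genes, those lower than at E17.5 included: Selplg, Ptprc, Cd68, Lyz2, Olfml3, Csf3r and Irf8. Of those 7, 3 were at least 2-fold higher on the labelled P5 array than at P1, namely Selplg (1.66), Lyz2 (1.18) and Olfml3 (1.10). With arrays centred, the 7 came to 4 (Cd68, Lyz2, Ptprc and Selplg) and the 3 to 2 (Lyz2 and Selplg), and with 64 added the 3 came to 2 (Olfml3 and Selplg). The sizes given for Mpeg1, Lyz2 and Mrc1 are inexact, since these genes stayed under the filter. On the labelled P5 array 7 of 34 members in all were at least 2-fold higher than at P1 (5.52% of all genes), the others being Lgmn (1.20), Itgam (1.14), Tmem119 (1.09) and Ctss (1.07). On the labelled P14 array, 3 of 34 were at least 2-fold higher than at P1 (0.823% of all genes): Lyz2 (1.15), Mrc1 (1.07) and Olfml3 (1.05). Across the 34 genes, the difference at P1 and the difference between the arrays labelled P5 and P14, which share no array, had a Pearson's r of 0.11 and a Spearman's rho of 0.06. All points come from the same 4 arrays.

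**Figure D3:**
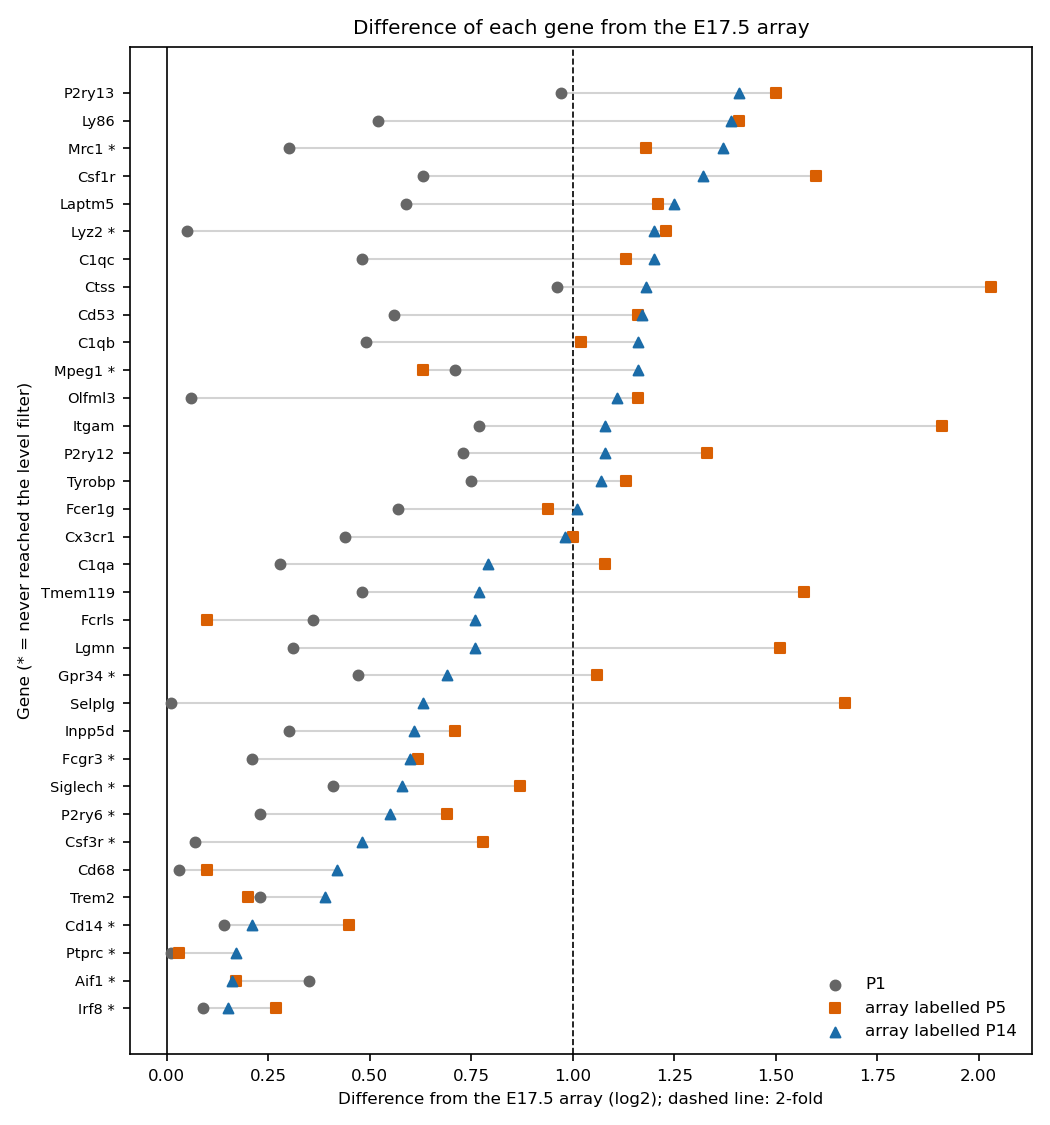
Difference of each of the 34 genes (vertical axis) from the E17.5 array in log2 units (horizontal axis), with a circle for P1, a square for the labelled P5 array and a triangle for the labelled P14 array. The dashed line marks 2-fold and an asterisk a gene that never reached the level filter. Squares and triangles lie close together for many genes, and Ctss, Itgam, Selplg, Tmem119 and Lgmn have squares far to the right of their triangles.

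The arrays labelled P5 and P14, which were far apart for myelin and young neuron genes, differed by at most 0.3 for 25 of the 34 members (73.5%), a limit also set after the values were seen. Over all genes the share was 60.3%, and 59.6% of all genes had a range under 0.5 over the 4 arrays. Among genes with a range of at least 2-fold, 15 of 22 members (68.2%) lay within 0.3, beside 333 of 2440 of all genes (13.6%). Of such genes in other lists, 4 of 17 astrocyte genes, 1 of 9 further microglia genes and 0 of 21 myelin genes did. The range that picked these genes also used the arrays labelled P5 and P14. It was at most 2.03 among members and reached 6.03 for Mag of the myelin list, so the groups compared were unlike in range. No difference between these shares was tested. The median difference of the 34 genes was −0.06 (labelled P14 minus labelled P5), with 11 genes above 0 and 23 below, where 53.8% of all genes were above 0. The sign of so small a median depended on the scaling. Over the 34 genes it was −0.06 after quantile normalization and 0.06 with arrays centred (20 genes above 0 and 14 below), and over the 22 past the filter 0.02 and 0.06. Centring moved the median of all genes past the filter by 0.11. No member was at least 2-fold higher on the labelled P14 array (1.3% of all genes) and 1, Selplg, was at least 2-fold lower (2.75%). Of the members 5, Selplg, Ctss, Itgam, Tmem119 and Lgmn, were at least 0.5 higher on the labelled P5 array (10.4% of all genes), and 2, Fcrls and Mpeg1, at least 0.5 higher on the labelled P14 array (8.49%).

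Lists of other cell types had medians on both sides of 0 in the same comparison, where the median of all genes was 0.04. The myelin and oligodendrocyte list had a median of −2.48 over 21 genes, the astrocyte list −0.43 over 22 and the endothelial list −0.30 over 13. Young neuron genes had a median of 1.33 over 16 and cell cycle genes 0.55 over 19. Other lists lay near 0 as the members did, at −0.10 for 33 further microglia genes, 0.07 for white-matter and reactive microglia, 0.07 for neutrophils and monocytes and 0.08 for TREM2 and Fc signalling partners. A median near 0 was thus not particular to the members, and with 1 array per age no difference between lists was tested. Between E17.5 and the labelled P14 array, the members' median of 0.89 lay below those of the myelin list (1.45) and the astrocyte list (1.42). Myelin, astrocyte and young neuron genes moved on the same arrays as the members, and their part in the members' values was not tested.

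**Figure D4:**
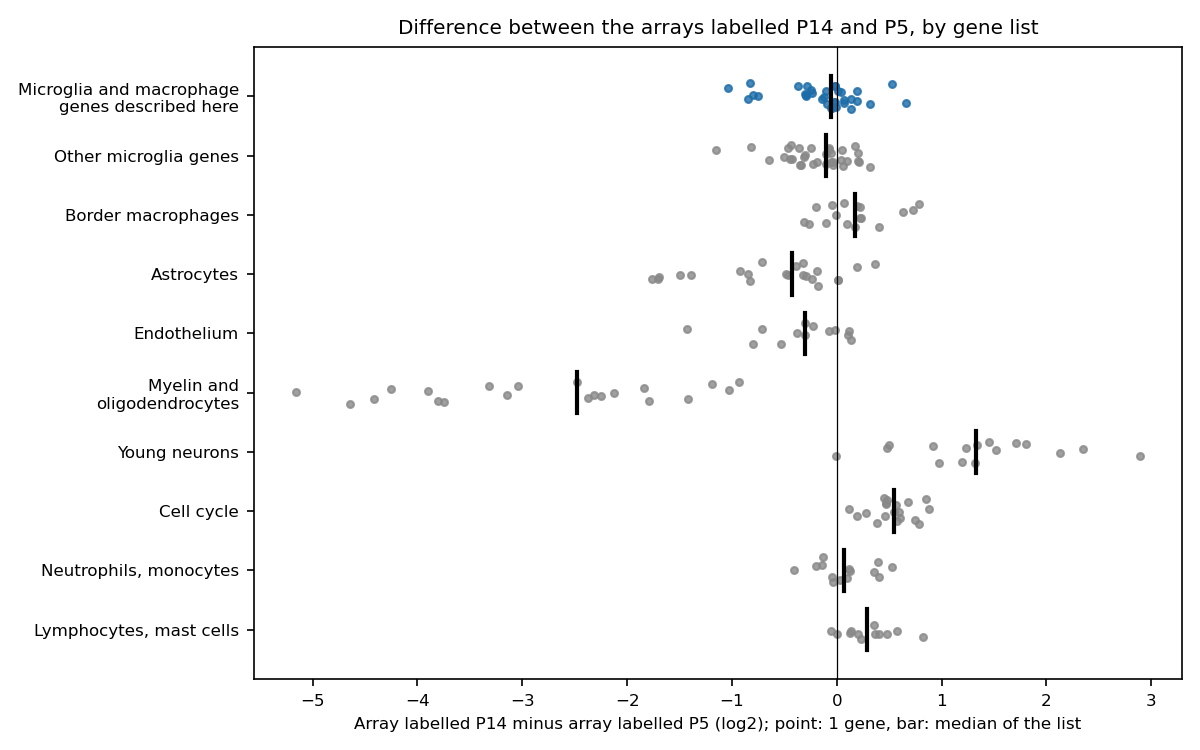
Difference between the arrays labelled P14 and P5 in log2 units (horizontal axis) for the genes of 10 lists (vertical axis). Each point is 1 gene named on the array and each bar the median of its list. The 34 microglia and macrophage genes center on −0.06 (0.06 with arrays centred), the myelin list on −2.48 and the young neuron list on 1.33.

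Blood cells were looked for with marker lists. Of 14 neutrophil and monocyte genes on the array, 1 passed the filter, Mmp9, with levels of 8.08, 7.88, 8.47 and 8.27. The median level of that list was 5.84, 5.92, 5.85 and 5.83. Of 12 lymphocyte and mast cell genes 1 passed, Kit, which was highest at E17.5 (9.45). That list's medians were 6.59, 6.62, 6.48 and 6.75. Ccr2, the chemokine receptor of monocytes, stood at 4.70, 4.52, 4.42 and 4.45, and Ly6g of neutrophils at 5.76, 5.87, 5.77 and 5.72. Of 8 red blood cell genes 1 passed, Alas2, an enzyme of heme synthesis, at 8.89, 8.41, 8.66 and 8.62. Between E17.5 and the labelled P14 array the medians of these 3 lists were −0.01, 0.12 and −0.06. At E17.5, 10 of 14, 8 of 12 and 6 of 8 of their genes lay under the lower quartile of the array, and readings this low bear little on whether these transcripts differed.

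Border macrophage genes stood low. Of 17, 3 passed the filter: Dab2, an endocytic adaptor that other cells also make, at 8.60, 9.04, 10.22 and 10.17, Stab1, a scavenger receptor, at 8.11, 7.97, 8.55 and 8.45, and the transcription factor Maf at 8.47, 8.30, 8.75 and 8.85. The defining markers Cd163 (6.09, 6.04, 6.25 and 6.44) and Pf4 (6.87, 6.78, 7.17 and 7.40) never reached 8.41. Lyve1, another, stood at 7.06, 7.27, 7.82 and 8.22, its highest value being on the labelled P14 array, as for the member Mrc1. Over all 17 genes the median difference between E17.5 and P1 was −0.02, beside 0.39 for the 34 members. Between P1 and the labelled P14 array it was 0.55, beside 0.41 for the members. On the labelled P14 array 5 of 17 were at least 2-fold higher than at E17.5 (2.73% of all genes). Of the 3 past the filter 1, Dab2, was among them (4.55% of genes past the filter). On both the E17.5 and P1 arrays 12 of the 17 lay under the lower quartile, which limits what these medians and the count of 5 show.

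A second list of 38 genes of microglia and related leukocytes, none of them a member, gave 33 genes on the array and 14 past the filter. All but 1 of the 33 were higher on the labelled P14 array than at E17.5 (49.2% of all genes were), with a median of 0.48 and none at least 2-fold apart. The largest differences past the filter were those of Cd33, a sialic acid receptor (0.97), and Lcp2, an adaptor (0.87), and the exception was Dock8 (−0.61). At P1, 23 of the 33 were above their E17.5 level and 9 below it, where 42.3% of all genes were above. Their median at P1 was 0.15, beside 0.39 for the 34 members. E17.5 alone was the lowest array for 23 of the 33 (69.7%), beside all 34 members. Spi1, the transcription factor PU.1 that founds the lineage, stood at 7.72, 8.10, 8.36 and 8.41. Sall1, the factor that sets microglia apart from other macrophages, stood at 8.57, 8.87, 9.62 and 9.15. On the arrays labelled P5 and P14, 20 of the 33 (60.6%) had values within 0.3 of each other. Lair1, an inhibitory collagen receptor, was not among them at 7.17, 7.45, 8.69 and 7.54, nor was Lcp1, an actin bundler, at 7.87, 7.68, 8.83 and 8.01.

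Genes of microglia in young white matter and in reactive states differed among themselves. Of 16 on the array 11 passed the filter, and 1 was at least 2-fold higher on the labelled P14 array than at E17.5 (4.55% of genes past the filter). This was Lpl, lipoprotein lipase, at 8.26, 8.74, 10.53 and 9.90. Igf1, a growth factor, stood at 8.07, 8.90, 8.61 and 8.87. Ccl3, a chemokine of activated cells, stood at 8.51, 8.35, 7.44 and 8.82, lowest on the labelled P5 array. Clec7a (6.39, 6.37, 6.49 and 6.50), Itgax (6.45, 6.40, 6.27 and 6.68) and Cst7 (6.91, 6.79, 6.78 and 6.91), defining genes of reactive microglia, never reached the filter. Of 13 Toll-like receptor and adaptor genes 3 passed, and Tlr3, the sensor of double-stranded RNA, stood at 6.80, 7.04, 9.0 and 7.87.

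PU.1 binds a purine-rich word with the core GAGGAAG, so the windows before the genes' starts were read for it. RefSeq windows of GRCm38.p6 were given for 26 of the 34 members, and the 250 bases before each start were searched on both strands. The word was found in 10 of the 26, and in 12.0% of the 27025 genes with a window. Windows of 6 genes are shown, for the neighbouring pairs C1qb and C1qc and P2ry13 and P2ry12, which kept similar courses, and for Itgam and Trem2, which had a wide and a narrow range. Capitals mark GAGGAAG or its reverse complement.
C1qb, chr4:136886201-136886450, minus strand: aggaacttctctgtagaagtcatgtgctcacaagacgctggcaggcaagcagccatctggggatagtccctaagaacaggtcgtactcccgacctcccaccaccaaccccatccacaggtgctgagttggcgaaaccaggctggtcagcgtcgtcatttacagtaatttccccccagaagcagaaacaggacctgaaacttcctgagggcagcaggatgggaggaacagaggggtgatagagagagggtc
C1qc, chr4:136892915-136893164, minus strand: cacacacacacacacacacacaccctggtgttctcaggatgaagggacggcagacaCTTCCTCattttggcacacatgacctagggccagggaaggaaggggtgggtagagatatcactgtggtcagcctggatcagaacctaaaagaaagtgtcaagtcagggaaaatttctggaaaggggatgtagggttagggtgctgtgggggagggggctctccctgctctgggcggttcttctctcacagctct
P2ry13, chr3:59210883-59211132, minus strand: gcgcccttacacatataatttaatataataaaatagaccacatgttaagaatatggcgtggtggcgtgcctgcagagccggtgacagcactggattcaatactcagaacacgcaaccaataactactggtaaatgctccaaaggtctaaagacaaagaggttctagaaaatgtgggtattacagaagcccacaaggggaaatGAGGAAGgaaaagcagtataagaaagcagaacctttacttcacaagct
P2ry12, chr3:59262986-59263235, minus strand: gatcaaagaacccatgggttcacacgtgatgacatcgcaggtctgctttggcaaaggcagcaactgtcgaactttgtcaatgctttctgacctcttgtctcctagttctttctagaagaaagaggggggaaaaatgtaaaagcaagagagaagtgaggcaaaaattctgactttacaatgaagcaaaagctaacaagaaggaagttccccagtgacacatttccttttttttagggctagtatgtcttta
Itgam, chr7:128062390-128062639, plus strand: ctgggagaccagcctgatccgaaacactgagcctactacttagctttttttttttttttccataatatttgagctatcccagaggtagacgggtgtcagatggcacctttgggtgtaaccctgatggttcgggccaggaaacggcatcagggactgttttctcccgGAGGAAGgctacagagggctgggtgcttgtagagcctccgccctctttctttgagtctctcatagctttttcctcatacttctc
Trem2, chr17:48346151-48346400, plus strand: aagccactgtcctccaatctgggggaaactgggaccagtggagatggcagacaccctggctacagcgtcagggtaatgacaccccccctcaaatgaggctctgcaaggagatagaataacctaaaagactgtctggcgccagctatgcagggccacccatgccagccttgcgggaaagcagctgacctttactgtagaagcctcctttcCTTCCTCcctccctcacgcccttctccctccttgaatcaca

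C1qc, P2ry13, Itgam and Trem2 each held the word once, and C1qb and P2ry12 did not hold it. Within each neighbouring pair 1 gene held GAGGAAG and 1 did not, and whether the word bore on the levels was not tested. Itgam, with a range of 1.91, and Trem2, with a range of 0.39, both held it. The other members with the word were Csf3r, Fcgr3, Fcrls, Inpp5d, Laptm5 and Mrc1. Longer and overlapping words were rarer: GAGGAAGT was found in 2 of 26 members (2.79% of all genes) and AGGAAGTG in 3 (3.62%). The shorter GGAAGT was found in 10 (22.2%). Of the windows shown, those of C1qb, C1qc and P2ry12 held GGAAGT, and those of P2ry13, Itgam and Trem2 did not. The composite word that PU.1 binds with IRF8, GGAA then 2 free bases then GAAA, was found in none of the 26 (2.68%). The interferon-type word, TTTC then 2 free bases then TTTC, was found in 2 (3.46%), TGACTCA of AP-1 in 1 (5.16%), CACGTG in 3 (6.86%) and TATAAA in 6 (14.3%). The words were chosen with the members known, and a match describes the letters in a window and not a bound site.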

How the data were processed

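RNA of the pontine nucleus was measured at 4 ages on 1 array each, 4 arrays from 68 mice. The authors deposited normalised log2 signals per probe set, made with Affymetrix Expression Console per the submitters' processing notes; its version, summary method and normalisation are not stated in the sources read, and the values themselves (1.84 to 14.72) show the log2 scale. Of 35556 probe sets, 21789 carried 1 gene symbol, 1621 several and 12146 none in the table used. Per gene the probe set of highest mean was used, and 10901 of 19938 genes passed the level filter of 8.41. The Entrez identifiers of all 34 members were found in the RefSeq table of GRCm38.p6, used for names and neighbours. Differences were taken per gene and counted at 2-fold. With 1 array per age there was no p-value. All members were to be named, and up to 2 genes in each direction of other lists past the filter; defining markers and other genes named beside them were chosen after their values were seen. The members and lists were chosen with earlier results of these data known. Alternatives covered the filter, probe set choice, scaling, a linear pseudocount of 64 and the size threshold. Counting was tested on simulated data. Python 3.11.15, numpy 2.4.6 and pandas 2.3.3 were used.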

Additional observations from a re-analysis of the deposited data

How the results depend on the processing

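No paired analysis was possible because each age has 1 array, and for the same reason no replicate could be left out. No difference or median of at least 1 on the log2 scale changed sign under any alternative run; the small median for labelled P14 against P5 over the 22 members past the filter, −0.06, came to 0.02 after quantile normalization, 0.06 with arrays centred and 0.01 with the filter from the E17.5 and P1 arrays. Centring moved the median difference of all genes past the filter by −0.11 for labelled P5 against P1 and by 0.11 for labelled P14 against P5. Of 816 member differences recomputed, 45 moved by more than the SD between probe sets, all after 64 was added on the linear scale; the mean of all probe sets changed nothing for members, which have 1 each.
The counts of members at least 2-fold higher, over those past the filter, moved most with the size threshold. At 1.5-fold they were 7 for P1 against E17.5 (0 at 2-fold), 13 for labelled P5 against P1 (6), 1 for labelled P14 against P5 (0), 20 for labelled P14 against E17.5 (13) and 8 for labelled P14 against P1 (1). At 3-fold the count was 1 for labelled P5 against P1 (3.6% of genes past the filter). It was 0 for labelled P14 against E17.5, 0 for labelled P14 against P1 and 4 for labelled P5 against E17.5 (17 at 2-fold). The stricter filter, which leaves 9 members, gave 2 for labelled P5 against P1 (9.78% of genes past it). It gave 7 for labelled P14 against E17.5 and 9 for labelled P5 against E17.5, and a median of 0.67 for labelled P14 against P1 (0.45). The filter on the mean gave 2 for labelled P5 against P1 (7.29% of genes past it). Centred arrays gave 2 for P1 against E17.5 (P2ry13 and Ctss) and 3 for labelled P5 against P1. Adding 64 gave 3 for labelled P5 against P1, 7 and a median of 0.89 (1.08) for labelled P14 against E17.5, and 0 for labelled P14 against P1. Without a filter the median for labelled P14 against E17.5 was 0.89 and the count for labelled P14 against P1 was 3. The filter from the E17.5 and P1 arrays, an alternative added after seeing the data, leaves 14 members and gave 2 for labelled P5 against P1 and 10 for labelled P5 against E17.5. Counts under these alternatives that stand without a percentage are not set beside a share of all genes and are descriptions. Signals near or under the lower quartile limit what can be said of Gpr34, Ptprc, Aif1 and Cd14.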
